A study of Mus musculus with 15 samples.

Results

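The comparison described here set 2 H3K4me1 libraries from BAF-knockdown fibroblasts against 2 from control fibroblasts, all stimulated with TNF-α (5 ng/ml) for 1 h, and used 4 of the 15 samples of the series. The members were the promoters with a coverage score above 100 in the deposited promoter annotation, which gave 13559 of 25881 promoters. All libraries came from mouse 3T3 fibroblasts, an established embryonic fibroblast line. In the knockdown cells a retroviral short hairpin RNA against a sequence shared by Brg1 and Brm, with GFP from the same vector, was expressed and cells with high GFP were sorted, so that the residual amount of both proteins bounds the model. Control cells were labelled only as control, and the sources used here do not state whether they carried a vector. They received the same TNF-α treatment. The question was whether normal levels of BAF are needed for the arrangement of promoter nucleosomes in stimulated cells. The matching libraries without TNF-α, 2 control and 2 knockdown, were used only to ask whether the difference depended on stimulation.

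The BAF complex is an ATP-dependent chromatin remodeller that slides and evicts nucleosomes, and its motor is either Brg1, encoded by Smarca4, or Brm, encoded by Smarca2. Active promoters typically hold a nucleosome-depleted region (NDR) just upstream of the transcription start site (TSS), flanked by well-positioned nucleosomes of which the first downstream is called +1. TNF-α acts through NF-κB and AP-1 to switch on genes of inflammation, some of which are known to need BAF for their induction.

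Promoters of TNF-response genes differ widely in their base composition, and CpG-rich sequence is known to disfavour nucleosomes. To show this range, the 150 bases upstream of the TSS are given for 4 of the TNF-response genes named here. They were chosen by occupancy in the NDR minus that of a flank further upstream, in a separate, pooled set of TNF-stimulated fibroblasts. The comparison did not use this set. Ier3 (−2.13) and Irf1 (−1.72) had the lowest values of the named genes, and Lif (0.67) and Il6 (0.53) the highest. Occupancy cannot fall below 0, so the lowest values required a high flank and need not mean the deepest NDR. In each of the libraries compared here Lif lay below the flank. Sequences were read from mm9, run 5′ to 3′ on the plus strand, on which all 4 genes lie, and end at the base before the TSS. Capitals mark CpG dinucleotides. They cover chr17:35958509-35958658 for Ier3, chr11:53583367-53583516 for Irf1, chr5:30339552-30339701 for Il6 and chr11:4157422-4157571 for Lif.
Ier3: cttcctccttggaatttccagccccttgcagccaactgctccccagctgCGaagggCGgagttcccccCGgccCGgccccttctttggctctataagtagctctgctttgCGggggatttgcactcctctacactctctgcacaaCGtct
Irf1: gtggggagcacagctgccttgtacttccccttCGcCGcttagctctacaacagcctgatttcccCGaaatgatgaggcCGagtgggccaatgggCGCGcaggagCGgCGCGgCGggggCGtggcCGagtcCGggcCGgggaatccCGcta
Il6: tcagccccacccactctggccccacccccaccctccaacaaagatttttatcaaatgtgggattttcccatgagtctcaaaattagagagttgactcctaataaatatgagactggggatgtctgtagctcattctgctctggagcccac
Lif: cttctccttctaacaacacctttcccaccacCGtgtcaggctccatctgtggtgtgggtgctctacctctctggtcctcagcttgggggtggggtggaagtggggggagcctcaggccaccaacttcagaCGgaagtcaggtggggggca
Irf1 had 15 CpGs in this window and Ier3 had 6, whereas Lif had 2 and Il6 had 0, beside a median of 8 over all 13559 promoters. The median was 11 at active, 7 at inducible and 2 at inactive promoters. Ier3, with the lowest value of the measure, thus held fewer CpGs than the median promoter. These 4 genes were picked as extremes, and whether CpG content follows NDR depth was not tested.

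Nucleosome occupancy was read in 200 bins of 10 bp from −1000 to 1000 bp of each TSS, as a signal relative to the surrounding 1 kb. The paper gives sequencing depth only as a range over its samples. The depth of each library is unknown because no read counts were used. In its place, 63.5% to 76.0% of bins held any fragment in the 4 libraries, and control replicate 2 was the sparsest. Mean occupancy was 0.791 to 0.802, and 176 to 198 promoters held no fragment at all in a given library. The deposited library names carry the token 04U for knockdown replicate 1 and 12U for the other 3, a difference whose meaning the sources used here do not give. The deposited expression of resting fibroblasts came from another series, so it does not check the cells compared here. In it, 7 of 7 fibroblast markers (such as Col1a1 and Vim) lay above the threshold for an active gene. Of 7 dendritic or myeloid markers, 1 did, and none was listed at 0, the highest being Cd74 at 1.88 FPKM, whereas the fibroblast markers ranged from 2.09 FPKM (Pdgfrb) to 1325.5 FPKM (Vim).

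The targeted genes were considered first. The Smarca4 promoter (chromosome 9, TSS 21420614, plus strand, CpG island, active class) had an NDR occupancy of −0.83 and −0.89 in the control and −0.78 and −0.94 in the knockdown libraries. NDR occupancy is mean occupancy from −150 to 0 bp minus that of the flank from −1000 to −500 bp, so negative values mean depletion. The groups overlapped, with a difference of 0.00 and a 95% confidence interval from −0.31 to 0.31 (limma, adjusted p = 1.0). Occupancy in the NDR itself was 0 in each of these libraries, so the values differed only through the flank. Smarca2 had a score of 49 and was not tested. Nucleosome occupancy at these promoters does not measure the knockdown, which acts on the mRNA, so the labels could not be checked from these data.

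Active promoters kept a clear NDR in the BAF-knockdown cells, and it was no shallower there than in control cells. Mean occupancy of the 6397 active promoters fell to its lowest value at −75 and −35 bp in the control libraries (0.502 and 0.438) and at −55 and −65 bp in the knockdown libraries (0.396 and 0.389). The NDR ratio, which divides mean occupancy in the NDR by that in the flank and is 1 where there is no depletion, was 0.655 and 0.587 in control and 0.529 and 0.539 in knockdown libraries. Both knockdown libraries thus lay below both control libraries. The means were 0.621 ± 0.048 and 0.534 ± 0.0068 (SD, n = 2 each), a difference of −0.0868 (two-sided exact permutation test, p = 0.333, the smallest that 6 splits of 4 libraries allow). Adjusted over the 17 promoter classes compared, p was 0.630, and this applied to each of the 9 classes without overlap. Without control replicate 1 the difference was −0.0528, and without knockdown replicate 1, the library with the other name token, it was −0.0819.

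**Figure D1:**
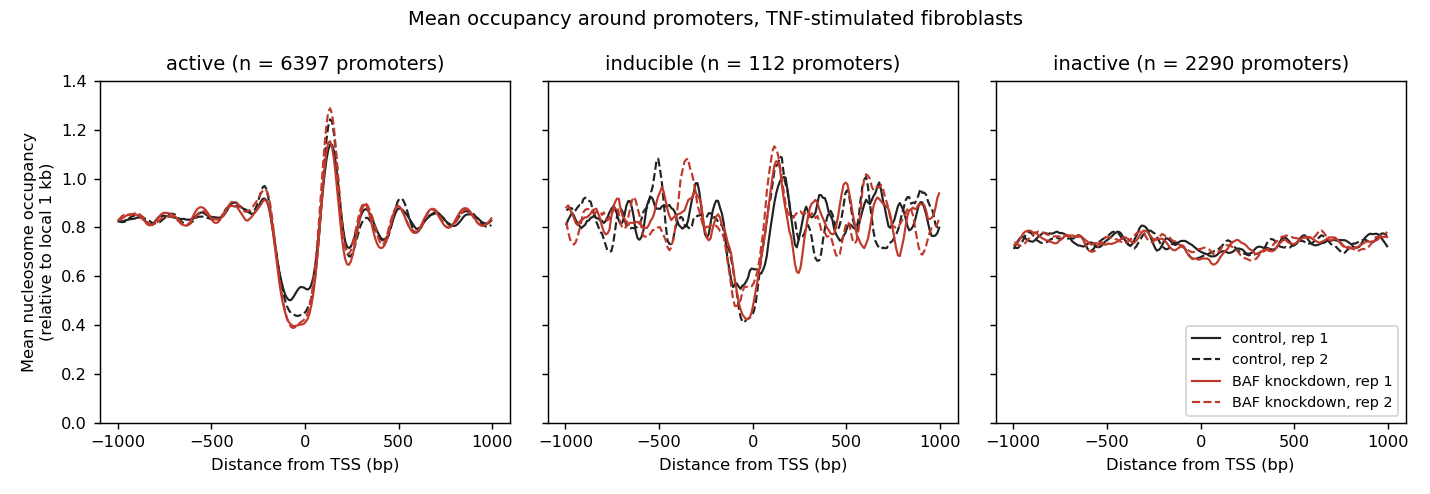
Mean nucleosome occupancy (y axis, signal relative to the local 1 kb) against distance from the TSS in bp (x axis) for active, inducible and inactive promoters. Each line is 1 TNF-stimulated library, black for control and red for BAF knockdown, solid for replicate 1 and dashed for replicate 2. At active promoters the 2 red lines reach 0.396 and 0.389 in the NDR and the 2 black lines 0.502 and 0.438, while inactive promoters show no NDR in any of the 4.

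The gap was wider at active promoters with a CpG island. At these 4938 promoters the NDR ratio was 0.610 and 0.520 in control and 0.457 and 0.463 in knockdown libraries. At the 1459 active promoters without a CpG island it was 0.811 and 0.821 against 0.779 and 0.804. The groups did not overlap in either set, and the differences were −0.105 and −0.0243. The first was −0.0598 without control replicate 1, and the second was −0.0118 without knockdown replicate 1 and −0.0368 without knockdown replicate 2. Whether these 2 differences are unequal was not tested. When active promoters were divided into 5 groups of rising expression, the difference ranged from −0.0555 to −0.114 and the libraries overlapped in 1 of the 5 groups.

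Libraries of the same group also differed in the depth of the NDR. In resting cells the same ratio over active promoters was 0.699 and 0.535 in control and 0.662 and 0.677 in knockdown libraries, so that resting control replicate 1 lay above all 4 stimulated libraries and replicate 2 lay between the stimulated knockdown libraries. The difference between the stimulated and the resting knockdown effect was −0.139 (exact permutation test over 36 splits, p = 0.167, adjusted p = 0.405 over 17 classes). In the stimulated libraries the share of bins with fragments was 73.4% and 63.5% in control and 76.0% and 68.3% in knockdown libraries. Whether this share bears on the depth of the NDR was not tested.

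**Figure D2:**
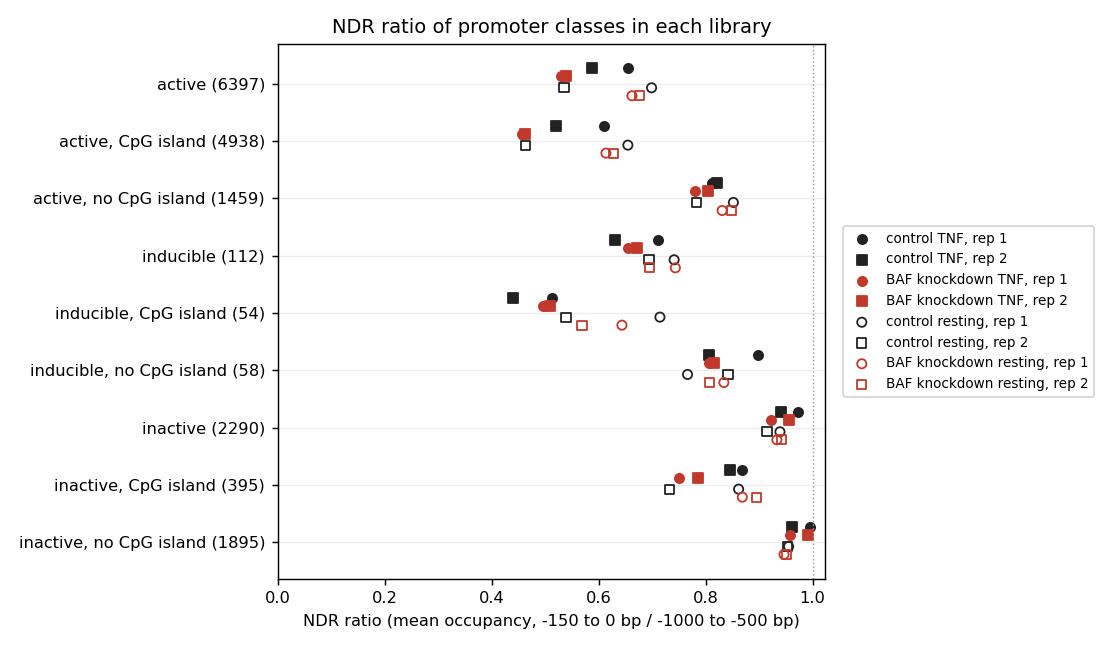
NDR ratio (x axis, no unit) of promoter classes (y axis, number of promoters in brackets) in each of 8 libraries. Filled symbols are TNF-stimulated and open symbols resting, black is control and red BAF knockdown, circles are replicate 1 and squares replicate 2, and the dotted line marks no depletion. At active promoters the filled red symbols (0.529 and 0.539) lie below the filled black ones (0.655 and 0.587), and the open black square (0.535) lies beside them.

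At active promoters the mean profile peaked at nearly the same places in both groups. The +1 nucleosome of active promoters peaked at 145 and 135 bp in control and at 135 and 135 bp in knockdown libraries, with heights of 1.14, 1.24, 1.15 and 1.29 in the same order. Upstream, the highest occupancy beside the NDR was at −215 bp in all 4. Located promoter by promoter, the median position of the first upstream peak was −125 and −175 bp in control and −155 and −175 bp in knockdown libraries, which overlapped. The mean profile of the 112 inducible promoters peaked downstream at 165 and 145 bp in control and at 125 and 115 bp in knockdown libraries, and upstream at −295 and −235 bp against −305 and −345 bp. Neither overlapped (exact permutation test, p = 0.333 for both, the smallest possible), and this profile is less smooth than that of active promoters. The nucleosomal period over all promoters was 180.6 and 176.5 bp in control and 176.7 and 177.5 bp in knockdown libraries, which overlapped (difference −1.46 bp, exact permutation test, p = 1.0). Occupancy from 50 to 200 bp of active promoters was 0.958 and 0.993 against 0.938 and 1.03, which also overlapped.

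The patterning level, the agreement of a promoter's profile with the mean profile of active promoters in pooled resting fibroblasts, was higher in knockdown libraries at active promoters as a whole but not at those without a CpG island. Its median over active promoters was 3.65 and 4.36 in control and 4.41 and 4.79 in knockdown libraries, higher in the latter without overlap (difference 0.593, exact permutation test, p = 0.333, adjusted p = 0.810 over 17 classes). It was 0.237 without control replicate 1 and 0.948 without control replicate 2. With a CpG island the medians were 4.14 and 4.96 against 5.21 and 5.60. Without one the direction was the opposite, also without overlap, with 1.85 and 2.02 against 1.57 and 1.73 (difference −0.285, exact permutation test, p = 0.333, adjusted p = 0.810). The mean patterning level of these promoters overlapped, with 1.96 and 2.18 against 1.99 and 2.00 (difference −0.0751). Occupancy in the NDR was below that of the flank at 74.1% and 75.4% of active promoters in control libraries and at 80.7% and 78.8% in knockdown libraries.

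Promoters of TNF-inducible genes showed no common shift. The 112 inducible promoters, those with a log2 rise in expression above 0.35 in the deposited annotation, had an NDR ratio of 0.711 and 0.630 in control and 0.655 and 0.671 in knockdown libraries. The knockdown values lay between the control values, and the difference of −0.0073 turned positive without control replicate 1 (0.0332) and without knockdown replicate 1 (0.00095). With a CpG island (54 promoters) the ratios were 0.513 and 0.439 against 0.496 and 0.508, and without one (58) they were 0.897 and 0.805 against 0.805 and 0.815.

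Inducible promoters were further divided by their patterning in pooled resting fibroblasts, libraries apart from the 4 compared. The 56 with high patterning had NDR ratios of 0.620 and 0.432 in control and 0.507 and 0.421 in knockdown libraries, which overlapped. The 56 with low patterning had 0.801 and 0.820 against 0.806 and 0.916, which overlapped. Median patterning of the low group was 1.69 and 1.52 in control and 0.730 and 0.798 in knockdown libraries, so that both knockdown libraries were lower (difference −0.841, exact permutation test, p = 0.333, adjusted p = 0.810). The mean patterning level of the low group overlapped, with 1.55 and 0.917 against 1.08 and 0.0395. In resting cells the medians of the low group were 0.528 and 0.984 against 0.193 and 1.08 and overlapped.

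Inactive promoters stayed without an NDR. Over the 2290 promoters of unexpressed genes the ratio was 0.973 and 0.942 in control and 0.922 and 0.955 in knockdown libraries, which overlapped. Their median patterning level was 0 in all 4 libraries. The 395 inactive promoters with a CpG island were an exception, with 0.869 and 0.845 against 0.750 and 0.785 and a difference of −0.0894 without overlap.

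Single promoters were then tested one by one with limma. Of 13559 promoters, 0 passed an adjusted p of 0.05 in either direction for NDR occupancy, for the patterning level or for +1 occupancy (percent called 0 for each). The lowest adjusted p values were 0.835, 0.845 and 0.833. At an unadjusted p under 0.05 there were 776 promoters (5.72%) for NDR occupancy, 305 higher and 471 lower in knockdown, 671 (4.95%) for the patterning level and 751 (5.54%) for +1 occupancy. The libraries of the groups did not overlap in NDR occupancy at 19.1% of promoters with lower and 14.4% with higher values in knockdown cells. For the patterning level these shares were 15.2% lower and 18.4% higher, and for +1 occupancy 16.4% lower and 16.3% higher. Promoters whose start sites lie close together share fragments, so these counts are not of independent promoters.

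The precision of most single promoters was low. The median half-width of its 95% confidence interval was 0.907 for NDR occupancy, whereas the median NDR occupancy of an active promoter in control cells was −0.387. At a promoter of median precision, the loss or gain of an average NDR therefore lay within the interval. Some promoters had a narrower interval, such as that of Irf1 (95% confidence interval −0.17 to 0.22). Its occupancy in the NDR was 0.024 and 0 in control and 0.0048 and 0 in knockdown libraries. Occupancy cannot fall below 0, so these values differed mostly through the flank, and the narrow interval need not mean a closer measurement. Across promoters, the patterning levels of the 2 control libraries correlated with a Spearman rho of 0.272, those of the 2 knockdown libraries with 0.379, and control with knockdown libraries with 0.301 to 0.321 (13559 promoters, which share libraries and are not independent). The nearest nucleosome peaks lay 53.7 bp apart on average between the control libraries, 48.4 bp between the knockdown libraries and 46.8 to 55.5 bp between groups, so that libraries of different groups were about as alike as libraries of the same group.

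**Figure D3:**
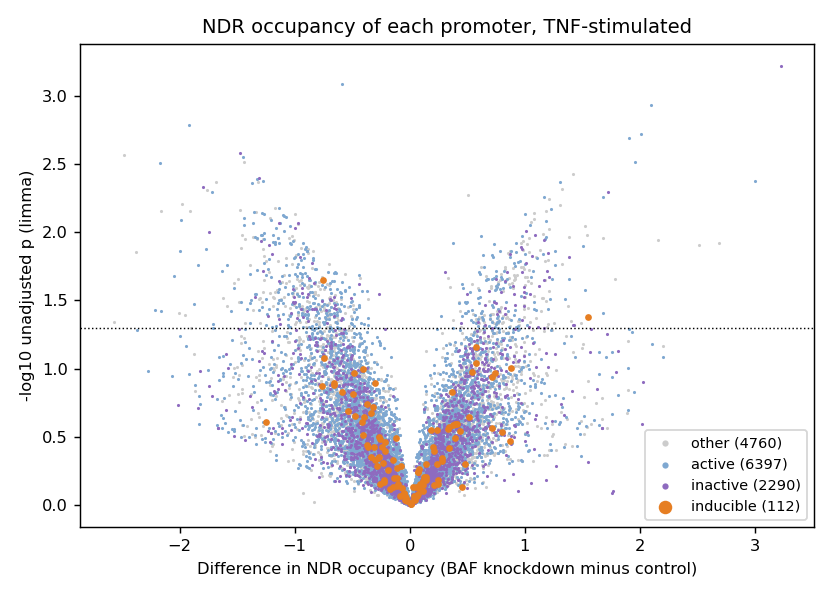
Difference in NDR occupancy between BAF-knockdown and control libraries (x axis, knockdown minus control) against the −log10 of the unadjusted limma p (y axis) for 13559 promoters, coloured by class, with the class size in brackets. The dotted line marks an unadjusted p of 0.05, above which 776 promoters lie. None passed after adjustment.

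Feedback inhibitors of NF-κB showed no change that passed the test. Nfkbib, which encodes the inhibitor IκBβ, had an NDR occupancy of −0.96 and −1.02 in control and −1.03 and −0.55 in knockdown libraries, and it was depleted in all 4. Tnfaip3, which encodes the ubiquitin-editing inhibitor A20, had −0.54 and 0.08 against −0.13 and 0.15. Nfkb2, the gene of the p100 precursor, had −0.39 and −0.90 against −0.63 and 0.94. In both Tnfaip3 and Nfkb2 libraries of the same group differed by more than the group means, and the groups overlapped. Over the 14 promoters of NF-κB subunits and feedback genes, 1 had higher (7.14%, beside 14.4% of all promoters) and 2 had lower values (14.3%, beside 19.1%) without overlap, and the median difference was −0.0185 beside −0.0344 over all promoters. Nfkbia and Relb, with scores of 100, and Birc3, with 82, did not exceed the score threshold.

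Chemokine promoters were mostly flat and variable. Cxcl10, which encodes an attractant of T cells, had an NDR occupancy of −0.45 and −0.37 in control and −0.48 and −0.88 in knockdown libraries, lower without overlap (difference −0.27, limma adjusted p = 0.850). Ccl5, another T-cell attractant, had 0.22 and 2.51 against 0.12 and 0.12. Its difference of −1.25 came with a standard error of 0.90 and an adjusted p of 0.845, and 1 control library, replicate 2, stood far above the other 3. Ccl2, an attractant of monocytes, had −0.36 and 0.36 against −0.31 and −0.50, and its neighbour Ccl7 had −0.08 and −0.10 against −0.23 and −0.05. Cxcl2, an attractant of neutrophils, had 0.13 and −0.06 against −0.12 and 1.92. Of the 14 chemokine promoters 4 were lower (28.6%, beside 19.1% of all promoters) and 0 higher (beside 14.4%) without overlap, with a median difference of −0.122. The list's NDR ratio of 0.822 and 1.14 against 0.764 and 0.930 overlapped. Cxcl1, with a score of 93.8, did not exceed the threshold.

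Cytokine promoters did not move together. Il6, an inflammatory cytokine whose CpG-free upstream sequence is shown above, had an NDR occupancy of 0.60 and −1.03 in control and 0.37 and 0.15 in knockdown libraries. Lif had −0.17 and −0.46 against −0.22 and −0.25, and Csf1, which encodes a macrophage growth factor, had 0.18 and −0.19 against −0.22 and −0.27. Only Csf1 was separated, by less than the spread of its control libraries. Il1b and Tnf were the extremes of this list in patterning. The patterning level of Il1b was 0.43 and −1.12 in control and −6.80 and −8.0 in knockdown libraries (difference −7.06, SE 2.53). For Tnf it was −14.61 and −6.71 against −2.58 and 0.66 (difference 9.70, SE 4.20). Of 16 promoters of cytokines and growth factors, 3 were higher (18.8%) and 4 lower (25%) in NDR occupancy without overlap, near the 14.4% and 19.1% of all promoters, and 0 passed the adjusted threshold.

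Among rapidly induced genes, Ier3 and Irf1 had a low NDR occupancy in both control libraries. Ier3, an immediate early gene with a role in cell survival, had an NDR occupancy of −0.90 and −0.85 in control and −0.53 and 0.26 in knockdown libraries. Both knockdown libraries were higher (difference 0.74, 95% confidence interval −0.26 to 1.74, limma adjusted p = 0.835). Its patterning level was 8.32 and 13.54 against 3.17 and 1.36, lower without overlap. Irf1, which encodes a transcription factor of the interferon response, had −0.93 and −0.96 against −0.92 and −0.92, so that its CpG-rich promoter was depleted to nearly the same level in all 4 libraries. Ptgs2, the gene of cyclooxygenase-2, had −0.85 and −0.78 against −0.73 and −0.76. Icam1, a leukocyte adhesion molecule, had 0.01 and −0.10 against 0.64 and 0.03 and no value below −0.10 in the stimulated libraries. Vcam1, with a score of 96.8, and Mmp3, with 47.8, did not exceed the threshold.

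**Figure D4:**
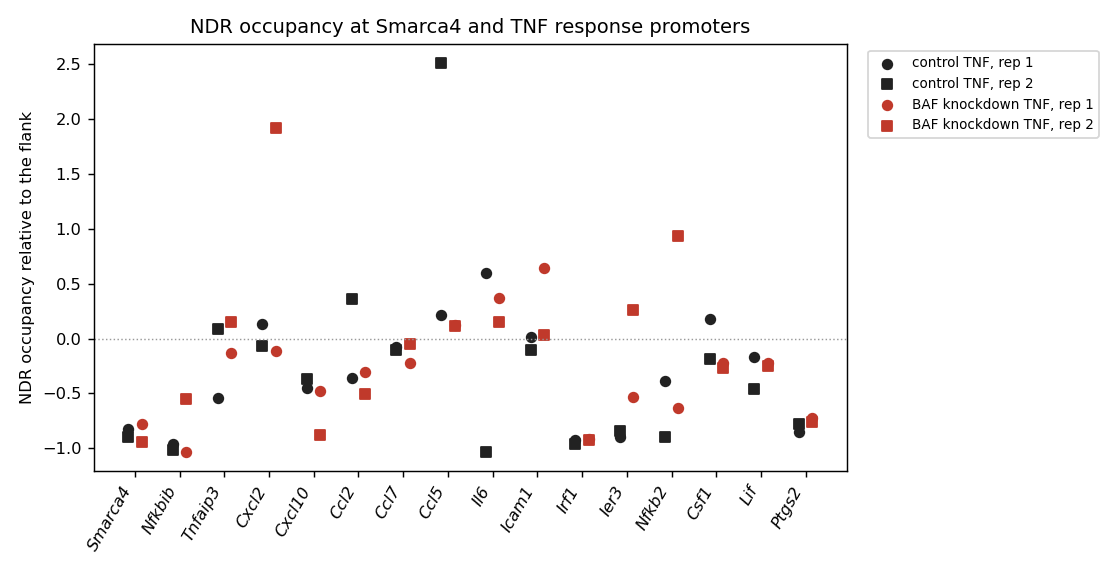
NDR occupancy (y axis, mean occupancy from −150 to 0 bp minus that from −1000 to −500 bp, no unit) of Smarca4 and 15 TNF-response promoters (x axis) in each TNF-stimulated library, black for control and red for BAF knockdown, circles for replicate 1 and squares for replicate 2. Irf1 and Ptgs2 lie close together in all 4 libraries, while Ccl5, Cxcl2, Il6 and Nfkb2 each have 1 library far from the other 3.

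Of the signalling genes upstream of NF-κB, Ikbkg, which encodes the NEMO scaffold, had the most positive difference in patterning level, −6.28 and −1.25 in control and 8.0 and 6.84 in knockdown libraries, without overlap. Map3k7, which encodes the kinase TAK1, had the most negative, −10.18 and 19.14 against −0.78 and −19.72, with overlap. Neither passed the test. The list of 16 promoters had 2 higher (12.5%) and 4 lower (25%) values of NDR occupancy without overlap, beside 14.4% and 19.1% of all promoters.

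The genes of the BAF complex itself had the widest gap among the gene lists. Their 14 promoters, of 13 genes, gave an NDR ratio of 0.818 and 0.787 in control and 0.330 and 0.546 in knockdown libraries, with no overlap and a median difference of −0.261 in NDR occupancy. Only 2 of the 14 were lower without overlap (14.3%) and 2 were higher (14.3%), below or at the shares of all promoters given above. The promoter that added most was that of Smarcd3, a subunit gene named after its values were seen, with an occupancy in the NDR of 1.18 and 3.19 against 0.370 and 0.838. Without it the list's ratio was 0.779 and 0.566 against 0.324 and 0.516. Smarcd2, a subunit gene, had the most positive difference in patterning level of the list (3.11 and −16.09 against 24.09 and 3.51) and Dpf3 the most negative (10.67 and 15.53 against −1.80 and 8.29).

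For ribosomal protein, matrix and stromal, and cell cycle genes, the NDR ratios lay lower in stimulated knockdown libraries. At rest the groups overlapped in each of these lists. The resting ratios of ribosomal protein promoters were 0.642 and 0.326 in control and 0.625 and 0.714 in knockdown libraries. At 70 ribosomal protein promoters the NDR ratio was 0.678 and 0.610 in control and 0.450 and 0.491 in knockdown libraries, and without that of Rpl22, which added most, it was 0.633 and 0.596 against 0.456 and 0.499. Of these promoters 22 were lower (31.4%) and 9 higher (12.9%) without overlap, beside 20.5% and 13.2% of active and 19.1% and 14.4% of all promoters. In patterning level Rpl38 had the most positive difference, −13.12 and −15.81 against 1.56 and 15.44, and Rplp0 the most negative, 3.64 and 22.07 against 6.12 and −17.36. At 11 promoters of matrix and stromal genes the ratio was 1.08 and 0.733 against 0.602 and 0.552, and 5 were lower (45.5%, beside 19.1% of all promoters) and 1 higher (9.09%, beside 14.4%) without overlap. Pdgfra, a growth factor receptor gene, added most, since control replicate 1 alone had an occupancy of 3.31 at its second start site. Without that site the ratio was 0.751 and 0.795 against 0.518 and 0.562. Cell cycle regulators (16 promoters) gave 0.614 and 0.659 against 0.482 and 0.579, with 7 lower (43.8%) and 4 higher (25%) without overlap, both above the 19.1% and 14.4% of all promoters, and the ratios overlapped once Ccne2 was left out.

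**Figure D5:**
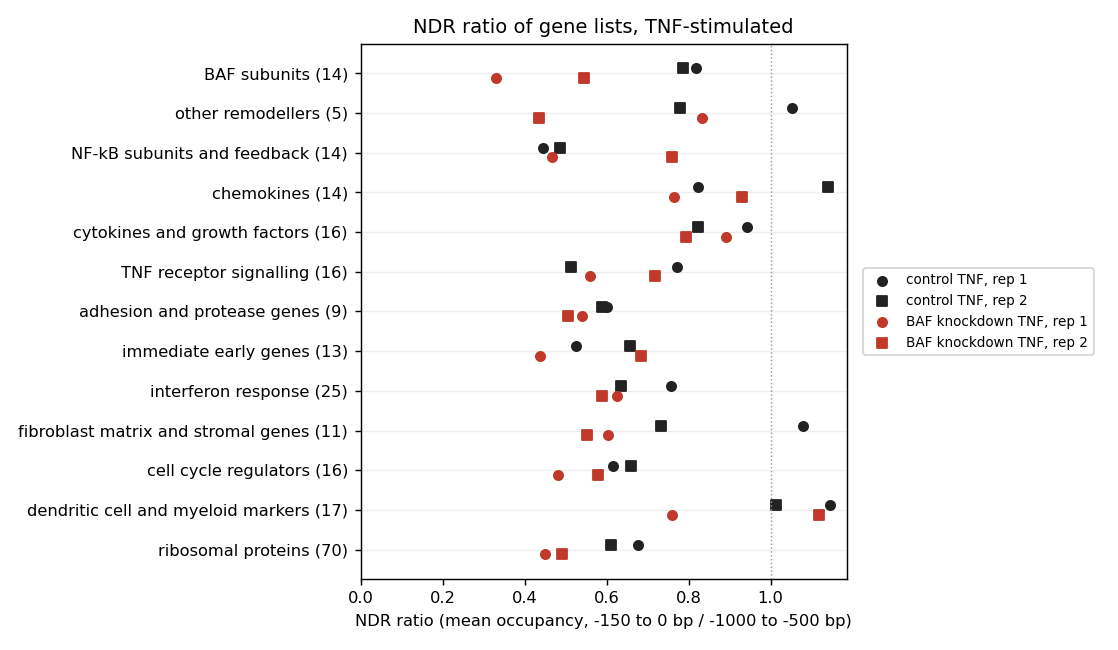
NDR ratio (x axis, no unit) of 13 gene lists (y axis, number of promoters in brackets) in the TNF-stimulated libraries, black for control and red for BAF knockdown, circles for replicate 1 and squares for replicate 2; the dotted line marks no depletion. Red and black symbols are apart for BAF subunits (0.330 and 0.546 against 0.818 and 0.787) and ribosomal proteins (0.450 and 0.491 against 0.678 and 0.610) and are mixed for chemokines and cytokines.

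The remaining lists were small or variable. Interferon-response genes (25 promoters) had 0.757 and 0.635 in control and 0.625 and 0.589 in knockdown libraries, which overlapped without Ifih1. Adhesion, protease and prostaglandin genes (9) had 0.602 and 0.590 against 0.540 and 0.505, which overlapped without Plau. Immediate early genes (13) had 0.524 and 0.657 against 0.437 and 0.683, other remodellers (5) had 1.05 and 0.780 against 0.834 and 0.435, and TNF receptor signalling genes (16) had 0.771 and 0.514 against 0.559 and 0.718. Dendritic cell and myeloid markers (17), genes of another cell type, had 1.14 and 1.01 against 0.760 and 1.12. These 4 lists overlapped between groups.

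The promoters with the lowest p values did not pass the adjusted threshold and were chosen by p and not by size. Ruvbl2, which encodes an ATPase of the INO80 remodeller, had an NDR occupancy of −1.11 and −0.99 in control and 0.89 and 1.19 in knockdown libraries (difference 2.10, SE 0.22, limma adjusted p = 0.835). Ltbp2, a matrix gene, had −0.93 and −0.98 against 1.27 and 0.84, and Zfp319 had −0.67 and −0.83 against 0.98 and 1.33. At these 3 promoters occupancy in the NDR lay below the flank in both control libraries and above it in both knockdown libraries. The promoter of 1700011M02Rik had −0.90 and −0.97 against 2.33 and 2.25, the lowest p among promoters with higher values (limma, unadjusted p = 0.00060). Occupancy in its NDR was 0 in both control libraries, so these differed only through the flank, and 3.33 and 3.32 in knockdown libraries. Its score of 103.75 lay just above the threshold.

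In the other direction, Lig1, which encodes a DNA ligase of replication, had an NDR occupancy of 0.99 and 1.37 in control and −0.72 and −1.26 in knockdown libraries. Lcorl had 0.78 and 1.12 against −0.94 and −1.0. Hnrnpdl, which encodes an RNA-binding protein, lay below the flank in each library, with −0.78 and −0.88 against −1.38 and −1.45 (difference −0.59, SE 0.06). Occupancy cannot fall below 0, so the knockdown values required a flank of at least 1.38 and 1.45. The lower values therefore need not mean a deeper NDR. By the patterning level, Acly, the gene of ATP citrate lyase, had the most positive difference of these, 0.27 and −2.70 against 26.33 and 28.60 (difference 28.68, SE 3.54, limma adjusted p = 0.845). Atp5b, a subunit of ATP synthase, had −3.85 and −1.75 against 16.94 and 20.95, and Rnf20, a ubiquitin ligase for histone H2B, had −6.74 and −10.13 against 13.23 and 11.90. Zfp319, 1700011M02Rik and Tsen34 were among the lowest p values by both measures, with a higher NDR occupancy and a lower patterning level in knockdown libraries.

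Whether the knockdown effect differed between stimulated and resting cells was tested over the 8 libraries. For each of the 3 measures 0 of 13559 promoters passed (limma, interaction term, percent called 0). At an unadjusted p under 0.05 there were 786 promoters for NDR occupancy, 764 for the patterning level and 821 for +1 occupancy. When the score had to exceed 200, 1 of 6812 promoters passed for NDR occupancy, that of Gpr31b (adjusted p = 0.0329), named after its values were seen. Its NDR occupancy was −1.0 in all 4 stimulated libraries and in both resting control libraries and 2.33 in both resting knockdown libraries, so that it did not differ among the stimulated ones. In each stimulated library occupancy in the NDR was 0 and that of the flank 1.0. The values thus lay at the floor, and their small spread need not mean a close measurement.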

How the data were processed

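H3K4me1 ChIP-MNase, in which antibody-selected chromatin of about 5 to 10 kb was digested with micrococcal nuclease (MNase) on the beads, was analysed in 2 control and 2 BAF-knockdown libraries of TNF-stimulated fibroblasts, with 4 resting libraries for the interaction. The authors mapped reads to mm9 with bowtie, discarded surplus duplicates, summed fragments per 10 bp bin, scaled each bin by the local 1 kb, and smoothed over 50 bp. What was deposited is therefore a signal without counts, and an empty bin was read as 0. The promoter annotation deposited by the authors gives a coverage score per promoter, expression of resting fibroblasts in FPKM, and log2 differences of array expression on stimulation. The last served only to define the inducible class, and their values are not printed. Both the expression and the array differences came from other series, so the promoter classes were not measured in the samples compared here.

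Promoters were called active where expression exceeded 0.02 of the mean and inactive where it was 0. CpG islands were called from mm9 within 200 bp of the TSS (GC above 50%, observed over expected CpG above 0.6). Symbols came from RefSeq names for 24924 of 25881 promoters. Differences were tested with limma 3.58.1 in R 4.3.3 with Benjamini-Hochberg adjustment, and class values by two-sided exact permutation of libraries. The fit was tested on simulated data. The labels number the replicates without stating separate cultures, so p-values measure the spread between these samples. Promoter by promoter, same-numbered libraries did not deviate together (Pearson r of deviations 0.0070 for the patterning level, 0.0097 for NDR occupancy and 0.0081 for +1 occupancy). Library-wide values did go with the replicate number. The share of bins with fragments was higher in replicate 1 of control (73.4% against 63.5%) and of knockdown (76.0% against 68.3%). Resting libraries showed the same order (74.9% against 69.7% and 78.1% against 67.9%).

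Named genes were Smarca4, Smarca2 and a set of TNF-response genes, the extremes of each gene list in patterning, and of each measure the 8 promoters with the lowest p in each direction, since none passed the threshold. Of Smarca4, Smarca2 and the TNF-response genes, the start site with the highest score was used. The other named promoters could be any start site of their gene. Members and lists were chosen with earlier results of these data known. Expression changes after BAF knockdown were not analysed here.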

Additional observations from a re-analysis of the deposited data

Results flagged for a closer look

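Some values lay on opposite sides of control in stimulated and resting cells, in every library. For NDR occupancy this held for 771 of 13559 promoters (5.69%). With 2 libraries per group, some promoters fall out this way without any effect. Whether the share exceeded that was not tested. Among promoter classes this held for inactive promoters with a CpG island, whose NDR ratio was 0.869 and 0.845 in control and 0.750 and 0.785 in knockdown libraries with TNF-α, and 0.862 and 0.732 against 0.868 and 0.895 at rest. The difference between the 2 effects was −0.175 (exact permutation test, p = 0.0556, the smallest that 36 splits allow, adjusted p = 0.405 over 17 classes).

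Among gene lists, BAF subunit promoters had NDR ratios of 0.441 and 0.371 in control and 0.769 and 0.580 in knockdown libraries at rest, opposite to the stimulated values, with a difference between the effects of −0.633. Interferon-response promoters had 0.572 and 0.569 against 0.820 and 0.905 at rest, with a difference of −0.381. These differences of the lists were not tested.

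Among 70 named promoters, 9 (12.9%) showed opposite directions of NDR occupancy, some of them named for their stimulated values, and for none did the interaction pass the test (limma). The resting values of Cxcl10 were −0.73 and −0.94 in control and −0.50 and −0.42 in knockdown libraries, and the difference between the effects was −0.641. Ccl5 had −0.48 and 0.28 against 0.46 and 0.51 at rest (difference −1.83), and Icam1 had 1.47 and 1.22 against 0.28 and 0.60 (difference 1.29). Ifih1, which encodes the RNA sensor MDA5, had 0.48 and 0.38 in control and −0.02 and −0.65 in knockdown libraries with TNF-α, against −0.17 and −0.26 and 0.78 and 1.49 at rest (difference −2.11). Cdkn1b, the gene of the cell cycle inhibitor p27, had −0.32 and −0.13 against −0.88 and −0.56 with TNF-α, and −0.57 and −0.84 against −0.24 and −0.13 at rest (difference −1.02).

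The other 4 of the 9 had been named for a low p in stimulated cells. Acly had an NDR occupancy of 0.06 and −0.53 in control and −0.83 and −0.65 in knockdown libraries with TNF-α, and −0.71 and −0.84 against −0.67 and 0.52 at rest (difference −1.21). At rest Ltbp2 had −0.07 and −0.63 against −0.74 and −0.84 (difference 2.45), and Lcorl had 0.24 and −0.98 against 0.70 and 0.26 (difference −2.77). Rab26os had 0.62 and 0.56 against −0.92 and −0.80 with TNF-α, and −0.84 and −1.08 against 0.07 and −0.11 at rest (difference −2.40).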

How the results depend on the processing

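The counts of promoters that passed the adjusted threshold in stimulated cells were 0 under each of 40 alternatives, which covered all 8 libraries in the fit, other scales, windows, filters and templates, and each library left out in turn. The number at an unadjusted p under 0.05 moved from 391 to 1795 for NDR occupancy, 369 to 1531 for the patterning level and 425 to 1710 for +1 occupancy. The lowest adjusted p came to 0.0699, for NDR occupancy. With the replicate number as a block, 0 promoters passed for each measure and the unadjusted counts were 450 for NDR occupancy, 506 for the patterning level and 521 for +1 occupancy. Of 45 alternatives of the interaction, added after the data were seen, 44 gave 0 and 1, a score above 200 for NDR occupancy, gave 1.

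Class values kept their direction in 42 of 48 alternatives. The NDR ratio of active promoters differed by −0.121 to −0.0528 with 1 library left out, that of inactive promoters by −0.0355 to −0.00258, and the median patterning level of active promoters by 0.237 to 0.948. Reversals were confined to 3 results whose groups overlapped. The NDR ratio of inducible promoters ranged from −0.0478 to 0.0332 with 1 library left out and was 0.0085 on the square-root scale. Their median patterning level ranged from −0.562 to 0.772 and the nucleosomal period from −3.53 to 0.619 bp. The cause was not tested. For single named promoters, 54 of 700 alternative values moved by more than 1 SD of the replicates. With 4 libraries the exact test could not fall below 0.333, and with 8 that of the interaction could not fall below 0.0556.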
